A study of Mus musculus with 6 samples.

Results

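Hair cell and hereditary deafness genes were followed in whole cochlear tissue, as a list of 37 mouse genes taken by symbol. A gene was found when the symbol of a probe equalled its own, and 31 of the 37 were found, among 18138 symbols on the array. They held 46 of the 25697 probes, and where a symbol had several, the probe with the highest mean signal over the 6 arrays stood for the gene. The list covers motors and actin proteins of the hair bundle, the tip link and Usher proteins, the transduction channel, the synapse, the outer hair cell motor, calcium buffers, transcription factors and a few other deafness genes.

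RNA of cochlear tissue from 3 WT and 3 *Cmah*-null mice, all of the C57BL/6 strain (C57BL/6J in the methods) and 12 months old, was hybridized to an Illumina MouseRef-8 v2 BeadChip, 1 array per sample. The *Cmah*-null animals carry the knockout allele tm1Ykoz and lack the enzyme that makes the sialic acid Neu5Gc, and no treatment is named for either group. C57BL/6 mice, WT animals included, lose hearing with age through an allele of *Cdh23* that the strain carries. The sources used here do not say how far the cochlea was freed from bone, muscle and skin, nor whether animals were pooled.

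The hair cell is the sensory receptor of the inner ear. Its apical bundle of stiff actin-filled stereocilia leans towards the tallest row, and tip links between neighbouring stereocilia pull open a channel when sound bends the bundle. Inner hair cells then release glutamate onto the fibres of the spiral ganglion, whereas outer hair cells change length and amplify the vibration. Mutations in most of the genes that build this apparatus cause deafness in people and mice. Hair cells form a very small share of the cells of a cochlea.

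Before the values are given, a few probes are shown, because several results below rest on which stretch of a gene was measured. The first 30 bases of the 50-base probes are printed 5′ to 3′, as the deposited annotation lists them. For *Ush1c* (chromosome 7, band 7qB4) and *Calb2* (chromosome 8, band 8qE1), as for *Otof* (band 5qB1), the brightest probe is followed by the second one, and the annotation places the start of each within its transcript. The *Slc26a5* pair (chromosome 5, band 5qA3) is shown because both probes missed the outer hair cell motor on every array, and the capitals mark bases that the pair shares. The *Triobp* pair overlaps likewise, with the shared bases in capitals. Its second probe is annotated to chromosome 15, band 15qE1, and its brightest probe to no chromosome.
Ush1c, brightest, start at base 2991: gccccacttcctgctataatccctgatgaa
Ush1c, second, start at base 17: ccccagctggcccgaaagcagcttgaagcc
Otof, brightest, start at base 6909: ggccagtgtgtgtcagctagtacacaagct
Otof, second, start at base 2243: ctacctggagcgcaagccctgcatctatat
Calb2, brightest, start at base 1298: gagctactgtggagggtgactgccctctcc
Calb2, second, start at base 350: ccgaagagaatttccttttgtgcttcaggc
Slc26a5, brightest: CAGTTACGGCTCGATTTGGAGGGTGaacga
Slc26a5, second: gctagCAGTTACGGCTCGATTTGGAGGGTG
Triobp, brightest: ccagcgccacccatgaaGACACTTCTCTTC
Triobp, second: GACACTTCTCTTCtgttccgtgagtcaccc
The *Slc26a5* probes share 45 of their bases and the *Triobp* probes 33, so neither pair gives independent readings of its gene. None of the 46 probes has the same sequence as any other probe of the array. The genome build of the probe coordinates is not given in the sources used here, so only the chromosome and band are stated, and a probe cannot be placed in coding sequence or UTR.

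The arrays themselves set limits on what follows. A probe was called detected at a detection p under 0.05 against the negative control beads, and 54.0 to 59.2% of all probes were detected on an array. *Cmah*-null 1 and *Cmah*-null 2 were nearly alike, with an SD of their log2 difference of 0.138 over the probes detected on all 6 arrays, whereas every other pair of arrays lay between 0.391 and 0.851. *Cmah*-null 3 stood apart from all 5 others, at 0.763 to 0.851. The methods give 3 mice per genotype, and the labels do not tie an array to a mouse, so whether *Cmah*-null 1 and 2 came from separate mice was not tested, and the p-values measure the spread between these samples only. WT 1, *Cmah*-null 1 and *Cmah*-null 2 carried a median of 32 to 34 beads per probe and the other 3 arrays 38 to 39, so for each gene detected on all arrays the difference is also given within each of these sets, first for the arrays of fewer beads and then for those of more. The probe of the targeted gene, *Cmah*, had log2 signals of 7.27, 7.28 and 7.87 in WT and 7.95, 7.98 and 7.27 in *Cmah*-null mice, and was detected on 1 WT and 2 *Cmah*-null arrays. The sources used here do not say whether it lies in the deleted part of the gene, so it does not check the labels.

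Of the 31 hair cell and deafness genes, 20, 18 and 17 were detected in the WT samples of whole cochlea and 16, 18 and 16 in the *Cmah*-null samples, while 60.4 to 63.5% of all symbols on the array were. Detection on all 6 arrays was reached by 14 of the 31 (45.2%), beside 54.6% of all symbols. Counting a gene that was detected on all 3 arrays of a genotype, the number was 16 (51.6%), beside 60.0% of all symbols. The additional pair, *Slc17a8* and *Eya4*, was detected on all WT arrays and on 2 of 3 *Cmah*-null arrays each. At a detection p under 0.01 the count of 16 went to 13. A further 5 genes were detected on 1 to 4 arrays, and 10 on none.

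Of the hair bundle motors and actin proteins, 4 of the 9 found were detected on all 6 arrays. These were *Myo7a* and *Myo6*, unconventional myosins of the hair cell, *Espn*, which bundles the actin of stereocilia, and *Triobp*, which forms their rootlets. *Myo15*, the motor that carries the tip complex of stereocilia, was detected on 2 arrays, with log2 signals of 7.36 to 7.59. *Myo1a*, *Strc* (stereocilin, the link between outer hair cell stereocilia), *Ptprq* and *Grxcr1* were detected on no array. Among tip link and Usher proteins, the scaffold genes *Ush1c* (harmonin) and *Ush1g* (SANS) were detected on all 6 arrays. *Cdh23* and *Pcdh15*, the cadherins that form the tip link itself, were detected on 1 and 0 arrays, and *Clrn1* (clarin) on 4.

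The transduction genes divided in a like manner, since *Tmc1*, the channel subunit of mature hair cells, and *Tmie*, its partner, were detected on all 6 arrays and *Tmc2*, the subunit of immature hair cells, on none. At the synapse, *Otof* (otoferlin, the calcium sensor of glutamate release) and *Chrna10*, a subunit of the receptor for the efferent nerve, were detected on all arrays. *Slc17a8*, which encodes the vesicular glutamate transporter of inner hair cells, was detected on 5, and *Chrna9*, the partner of *Chrna10*, on 3. Both probes of *Slc26a5* (prestin, the motor of outer hair cells) stayed undetected on every array. The calcium buffers *Pvalb* (parvalbumin) and *Calb2* (calretinin) were detected on all arrays, while *Ocm* (oncomodulin), the buffer most particular to outer hair cells, was detected on 1. Of the transcription factors, *Gfi1* was detected on 6 arrays, *Eya4* on 5, and *Pou4f3* and *Atoh1*, which specify and maintain hair cells, on none. *Wfs1*, an endoplasmic reticulum protein of many tissues, was detected on all arrays and *Dfnb59* (pejvakin) on none.

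**Figure D1:**
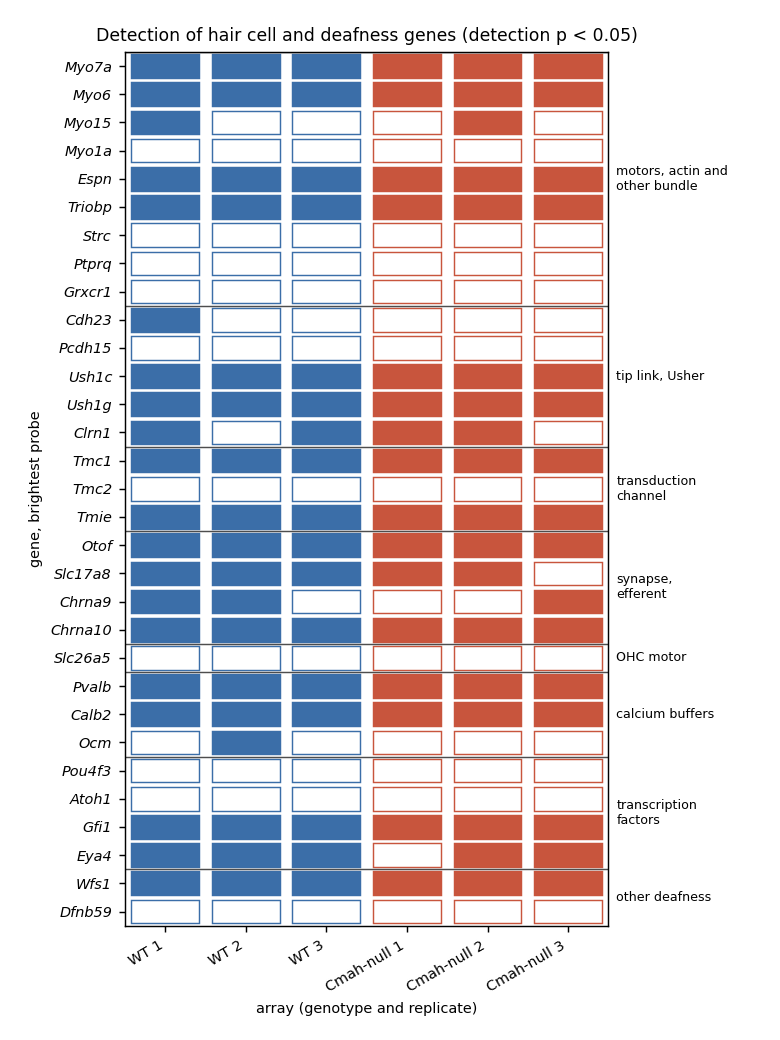
Detection of the 31 genes (rows, grouped by role) on the 3 WT (blue) and 3 Cmah-null (red) arrays (columns), where a filled box is a detection p under 0.05 and an open box is one not below it. The grid has 14 rows filled on all 6 arrays and 10 rows open on all of them, among them Slc26a5, Strc, Pou4f3 and Atoh1.

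The genes that were never detected had log2 signals of 6.82 to 7.33, and for them a genotype comparison is limited to background, so no fold is given. The labelled tissue was checked with 13 hair cell markers, all of them taken from the same 37 genes. Of the 12 found, 5 were detected on all arrays, and *Slc26a5*, *Pou4f3*, *Atoh1* and *Strc* were detected on none. The summed signal of that list was 5760 to 7190 in WT and 6040 to 7400 in *Cmah*-null samples, so the ranges overlapped. *Myo6*, which cells outside the ear also express, made up 60.3 to 71.8% of this sum, and without it the sum was 2026 to 2289 in WT and 2286 to 2426 in *Cmah*-null samples. No background was subtracted for these sums. The markers detected on no array, and *Ocm* and *Myo15*, detected on 1 and 2, thus add signals near background, and the sums do not measure hair cell content. In tissue RNA of this kind, fewer hair cells and less RNA per hair cell cannot be told apart.

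The question of the genotype comparison was whether these genes differ between cochleae with and without *Cmah*. No gene passed the test, since limma gave 0 of the 31 genes an adjusted p under 0.05 (0.0% of all symbols), and 5 of them (16.1%) an unadjusted p under 0.05, beside 9.07% of all symbols. By a looser rule of 1.5-fold and an unadjusted p under 0.05, 2 of 31 (6.45%) were higher in *Cmah*-null mice, *Ush1c* and *Calb2*, beside 1.61% of all symbols. None was lower by that rule, which 1.46% of all symbols met. All *Cmah*-null samples lay above all WT samples for 5 of the 31 (16.1%), beside 10.0% of all symbols, and all below for 0, beside 6.67% of all symbols. The 5 were *Ush1c*, *Ush1g*, *Chrna10*, *Calb2* and *Gfi1*. These shares rest on 2 and on 5 genes and were not tested against those of the array. With 3 against 3 samples the exact permutation test cannot give a two-sided p below 0.1, which is what these 5 genes had.

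**Figure D2:**
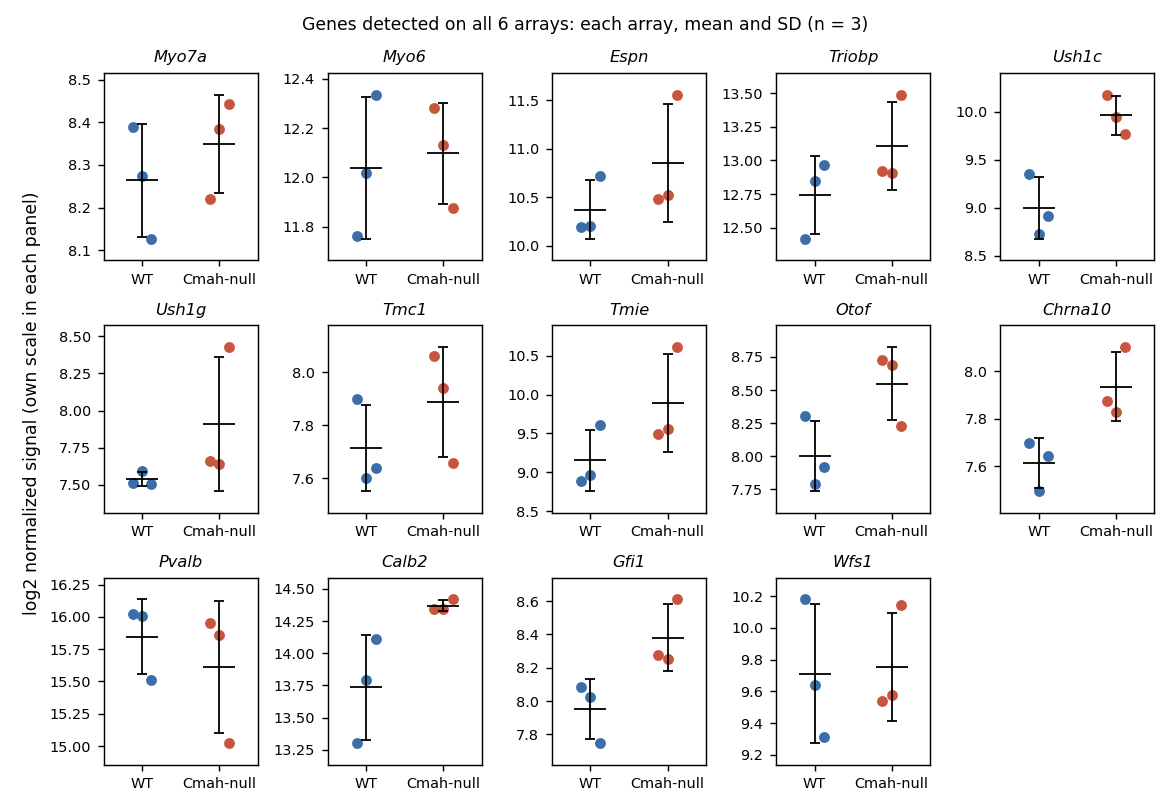
Log2 normalized signal (vertical axis, an own scale in each panel) of the 14 genes detected on all 6 arrays, for WT (blue) and Cmah-null (red) samples 1 to 3 from left to right, with the mean as a bar and the SD of the 3 samples as whiskers. The groups do not overlap for Ush1c, Ush1g, Chrna10, Calb2 and Gfi1, and Cmah-null 3 is the highest of the 6 arrays in 8 of the 14 panels.

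Among the tip link and Usher genes, *Ush1c* encodes harmonin, a scaffold that anchors the upper end of the tip link and is also made in the brush border of the gut. Its log2 signals were 9.36, 8.73 and 8.92 in WT and 10.18, 9.95 and 9.77 in *Cmah*-null mice. The lowest *Cmah*-null sample lay above the highest WT sample. The difference was 0.97 on the log2 scale (SE 0.19, 95% interval 0.49 to 1.44), a 1.95-fold higher mean signal in *Cmah*-null mice, with an adjusted p of 0.397 by limma. It was 0.71 among the arrays with fewer beads and 0.95 among those with more, and 1.06 without *Cmah*-null 3. The second probe of *Ush1c* was detected on no array and showed a difference of 0.07 (SE 0.10).

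*Ush1g* encodes SANS, which binds harmonin. It read 7.52, 7.59 and 7.51 in WT, close to the detection limit, and 7.66, 7.64 and 8.43 in *Cmah*-null samples. The groups did not overlap, but *Cmah*-null 3 was far above the other 5 samples, which spanned 7.51 to 7.66. The log2 difference of 0.37 (SE 0.23, adjusted p = 0.692, limma) became 0.11 without that sample, and 0.86 with neqc, a normalization that subtracts background. Within the bead sets it was 0.13 and 0.88. At a detection p under 0.01 only 1 array detected this gene.

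*Dfnb31* and *Dfna5* were not found under these symbols, but the RefSeq gene table (GRCm38.p6) gives the same gene identifiers to probes named *Whrn* and *Dfna5h* on the array. These are described apart and are not counted among the 31. *Whrn* encodes whirlin, which sits at the tips of stereocilia and in the ankle link complex. Its brighter probe read 11.15, 10.86 and 11.13 in WT and 11.21, 11.31 and 13.02 in *Cmah*-null samples, so the groups just failed to overlap and 1 sample set the difference. That difference was 0.81 on the log2 scale (SE 0.50, adjusted p = 0.697, limma) and 0.22 without *Cmah*-null 3. Its second probe read 9.63, 8.79 and 8.76 against 9.70, 9.73 and 10.79, with a log2 difference of 1.01 (SE 0.39, adjusted p = 0.571, limma) that was 0.65 without *Cmah*-null 3. Neither probe of *Whrn* passed the test. *Dfna5h*, the mouse form of a gene of dominant deafness that encodes gasdermin E, read 8.62, 8.72 and 8.64 in WT and 8.98, 8.85 and 8.86 in *Cmah*-null mice. Every *Cmah*-null sample was above every WT sample, by a small amount of 0.24 (SE 0.08, adjusted p = 0.529, limma), and by 0.26 without *Cmah*-null 3.

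Of the transduction genes, *Tmie* encodes a membrane protein of the channel complex. It read 8.90, 8.96 and 9.61 in WT and 9.50, 9.56 and 10.61 in *Cmah*-null samples. WT 3 lay above *Cmah*-null 1 and 2, so the groups overlapped. The log2 difference of 0.74 (SE 0.36, adjusted p = 0.634, limma) was 0.37 without *Cmah*-null 3, and within the bead sets 0.64 and 1.33. *Tmc1* read 7.90, 7.60 and 7.64 in WT and 8.06, 7.94 and 7.66 in *Cmah*-null mice. These groups overlapped too, and the difference of 0.18 had a 95% interval of -0.17 to 0.52 on the log2 scale, with 0.10 and 0.04 within the bead sets.

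At the synapse, *Otof* read 8.30, 7.79 and 7.92 in WT and 8.73, 8.69 and 8.23 in *Cmah*-null mice. *Cmah*-null 3 lay just below WT 1, which was the only overlap. The log2 difference was 0.55 (SE 0.19, 95% interval 0.07 to 1.02, adjusted p = 0.554, limma), and it was 0.41 and 0.38 within the arrays of fewer and of more beads. With neqc it was 0.99. The second *Otof* probe, detected on no array, differed by -0.06 (SE 0.10).

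*Chrna10*, expressed with *Chrna9* where the efferent nerve inhibits outer hair cells, read 7.70, 7.50 and 7.64 in WT and 7.87, 7.83 and 8.10 in *Cmah*-null mice. The groups did not overlap, though the values were low, and at a detection p under 0.01 only 3 arrays detected it. Its log2 difference was 0.32 (SE 0.11, adjusted p = 0.54, limma), and 0.15 and 0.53 within the bead sets. With neqc it was 0.80. *Slc17a8* read 7.78, 7.75 and 7.75 in WT and 7.88, 7.80 and 7.45 in *Cmah*-null samples. *Cmah*-null 3 was the lowest of the 6 and the only one that did not detect the transporter gene, and the other *Cmah*-null samples lay above WT.

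Both calcium buffers that were detected are made in many cells other than hair cells. *Calb2*, the gene of calretinin, which is found in inner hair cells and many neurons, read 13.30, 13.80 and 14.11 in WT and 14.34, 14.34 and 14.42 in *Cmah*-null mice. The *Cmah*-null samples were close together and above all WT samples, which were spread over a wider range. The log2 difference was 0.63 (SE 0.21, 95% interval 0.13 to 1.14), a 1.55-fold higher mean signal with an adjusted p of 0.531 by limma. It was 1.04 among the arrays with fewer beads and 0.47 among those with more. Without WT 1 the log2 difference was 0.42, which no longer reached 1.5-fold.

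The second *Calb2* probe, also detected on all arrays, read 10.23, 9.73 and 9.73 in WT and 10.21, 10.65 and 9.24 in *Cmah*-null mice. Here *Cmah*-null 3 was the lowest sample and *Cmah*-null 2 the highest. The log2 difference of 0.14 (SE 0.38) left the groups overlapping, so the 2 probes of *Calb2* did not give the same reading.

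*Pvalb*, a buffer of hair cells, fast muscle fibres and some neurons, read 16.02, 16.004 and 15.51 in WT and 15.95, 15.86 and 15.02 in *Cmah*-null mice. The third sample of each genotype was the lowest. The difference was -0.235 on the log2 scale with a 95% interval of -0.95 to 0.48, and it was 0.06 without *Cmah*-null 3. Within the bead sets it was -0.12 and -0.74. The raw signal of the gene was 67600 on WT 1, where the brightest probe of the array read 68000, and 67600 on *Cmah*-null 1, where it read 69900, so 4 of the 6 readings stood close to the top of the scale. The fast skeletal muscle markers, all 12 with a negative difference and with none passing the test, had summed signals of 366000, 385000 and 217000 in WT and 211000, 217000 and 266000 in *Cmah*-null samples. Their part in the *Pvalb* signal was not tested.

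Of the transcription factors, *Gfi1*, which hair cells need for survival and which also acts in the precursors of granulocytes, read 8.09, 8.03 and 7.75 in WT and 8.28, 8.25 and 8.61 in *Cmah*-null mice. No WT sample reached the lowest *Cmah*-null sample. The log2 difference was 0.43 (SE 0.14, adjusted p = 0.545, limma), with 0.18 within the arrays of fewer beads and 0.72 within the others, and 0.81 with neqc. Marrow granulocyte markers were present on these arrays, with 9 of the 10 found detected on all 6. Their median log2 signal was 9.99, 10.83 and 9.08 in WT and 10.45, 10.54 and 10.95 in *Cmah*-null samples, lowest on WT 3 and highest on *Cmah*-null 3, as *Gfi1* was. Of these markers 7 of 10 had a positive difference. Their summed signals were 83600, 109000 and 80400 in WT and 95200, 96300 and 83600 in *Cmah*-null samples. By the sum WT 2 was thus the highest array and *Cmah*-null 3 the lowest *Cmah*-null array, unlike *Gfi1*. The part of these markers in the *Gfi1* difference was not tested. *Eya4* read 7.88, 7.60 and 7.48 in WT and 7.49, 7.53 and 7.62 in *Cmah*-null mice, with the groups mixed.

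The detected bundle motors showed no one direction. *Myo7a* read 8.39, 8.28 and 8.13 in WT and 8.22, 8.38 and 8.44 in *Cmah*-null mice, a difference of 0.09 with a 95% interval of -0.17 to 0.34. *Myo6* read 11.76, 12.02 and 12.34 in WT and 12.28, 12.13 and 11.88 in *Cmah*-null mice, a difference of 0.06 with an interval of -0.39 to 0.50. Within the bead sets the differences changed sign, at -0.09 and 0.24 for *Myo7a* and 0.45 and -0.30 for *Myo6*, and *Myo6* read 0.57 with median scaling. In both genes the values of the genotypes were interleaved, and the intervals on the log2 scale leave out a doubling or a halving of the mean signal.

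*Espn* read 10.20, 10.20 and 10.72 in WT and 10.49, 10.53 and 11.56 in *Cmah*-null mice. *Cmah*-null 3 was by far the highest, and the log2 difference of 0.48 (SE 0.33) was 0.13 without it. Within the bead sets it was 0.31 and 1.10. The other 3 *Espn* probes, detected on 2 or 3 arrays, differed by 0.15, 0.26 and 0.37, each with all *Cmah*-null samples above all WT samples at values near the detection limit. *Triobp* read 12.42, 12.85 and 12.97 in WT and 12.93, 12.91 and 13.49 in *Cmah*-null mice, where again only *Cmah*-null 3 exceeded every WT sample. The difference of 0.36 (SE 0.22) was 0.17 without it and 0.50 and 0.58 within the bead sets, and its overlapping second probe gave 0.37. The third *Triobp* probe, detected on no array, differed by 0.05 (SE 0.08). *Wfs1* read 10.18, 9.64 and 9.32 in WT and 9.54, 9.58 and 10.15 in *Cmah*-null mice, with the genotypes mixed and a difference of 0.04 (SE 0.27). That difference joined opposite values within the bead sets, -0.62 and 0.67, and was -0.15 without *Cmah*-null 3.

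**Figure D3:**
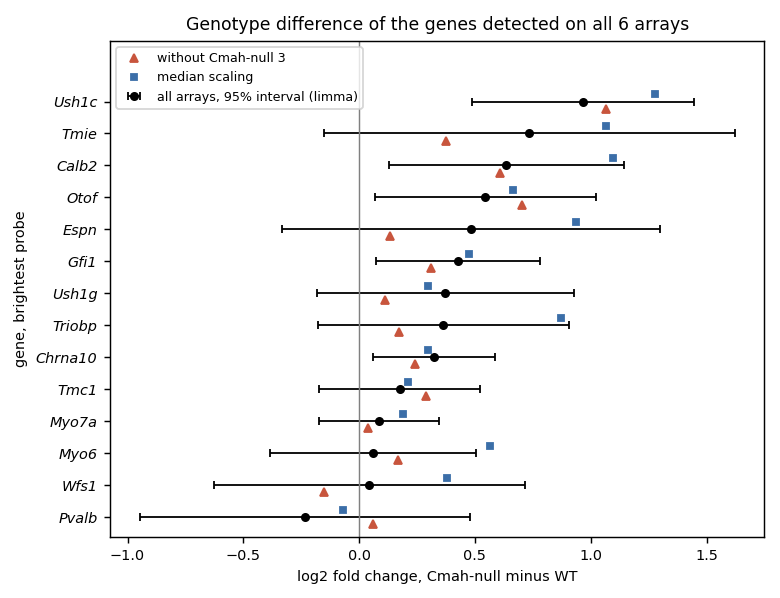
Log2 fold change (horizontal axis, Cmah-null minus WT) of the 14 genes detected on all 6 arrays, with the 95% interval of limma (black), the value without Cmah-null 3 (red triangle) and the value from median-scaled signals (blue square). Intervals of Ush1c, Calb2, Otof, Gfi1 and Chrna10 lie above 0 before any adjustment over the array, and Tmie, Espn, Ush1g and Triobp lie nearer 0 without Cmah-null 3.

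As a description of the list, 20 of the 31 genes (64.5%) had a positive difference, beside 53.1% of all symbols, and the median difference was 0.06 on the log2 scale, beside 0.01. Both values include the 10 genes detected on no array, whose differences are those of background. Among the 14 genes detected on all arrays 13 had a positive difference, all but *Pvalb*, beside 55.1% of the 9907 symbols detected likewise. Their median was 0.37 on the log2 scale, beside 0.04 for those symbols. Without *Cmah*-null 3 that median was 0.21, beside 0.04. Of the 14 genes, 10 were higher in *Cmah*-null mice within the arrays of fewer beads and also within those of more beads. The share of all symbols that were higher in both sets was not counted. WT 1 was the only WT array of fewer beads and *Cmah*-null 3 the only *Cmah*-null array of more beads, so the sets do not replicate a direction. Scaling the arrays by their median instead of their whole distribution moved the median difference of all probes detected on 6 arrays from 0.03 to 0.30, and against that shift 9 of the 14 were higher and 5 lower. *Ush1c*, *Tmie* and *Calb2* were then 0.98, 0.77 and 0.80 above the shift, while *Ush1g*, *Chrna10*, *Tmc1*, *Myo7a* and *Pvalb* were below it, the first pair by no more than 0.002.

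Markers of skin were read on the same arrays. Of 8 epidermal markers 6 were found, *Krt5*, *Krt10*, *Krt14*, *Lor*, *Ivl* and *Sprr1a*, all were detected on every array, and all had a positive difference, of which *Sprr1a* met the 1.5-fold rule. After adjustment limma called none of the 6. Their median log2 signal was 10.13, 10.75 and 12.14 in WT and 11.85, 11.98 and 12.88 in *Cmah*-null samples, and their summed signal 29100 to 113000 and 96400 to 109000. By the median *Cmah*-null 3 was the highest array and WT 3 the highest WT array, whereas by the sum WT 3 was the highest of all 6. The single markers differed, as *Krt10*, *Lor* and *Sprr1a* were highest on *Cmah*-null 3. Among the *Cmah*-null samples, *Krt5*, *Krt14* and *Ivl* were lowest there. Among the 14 genes detected on all arrays, *Espn*, *Triobp*, *Tmie* and *Calb2* also had their highest WT value on WT 3 and their highest *Cmah*-null value on *Cmah*-null 3. *Ush1c* and *Otof* did not, as both were highest on *Cmah*-null 1. The share of all symbols with their highest values on WT 3 and *Cmah*-null 3 was not counted. The part of epidermis in these differences was not tested.

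**Figure D4:**
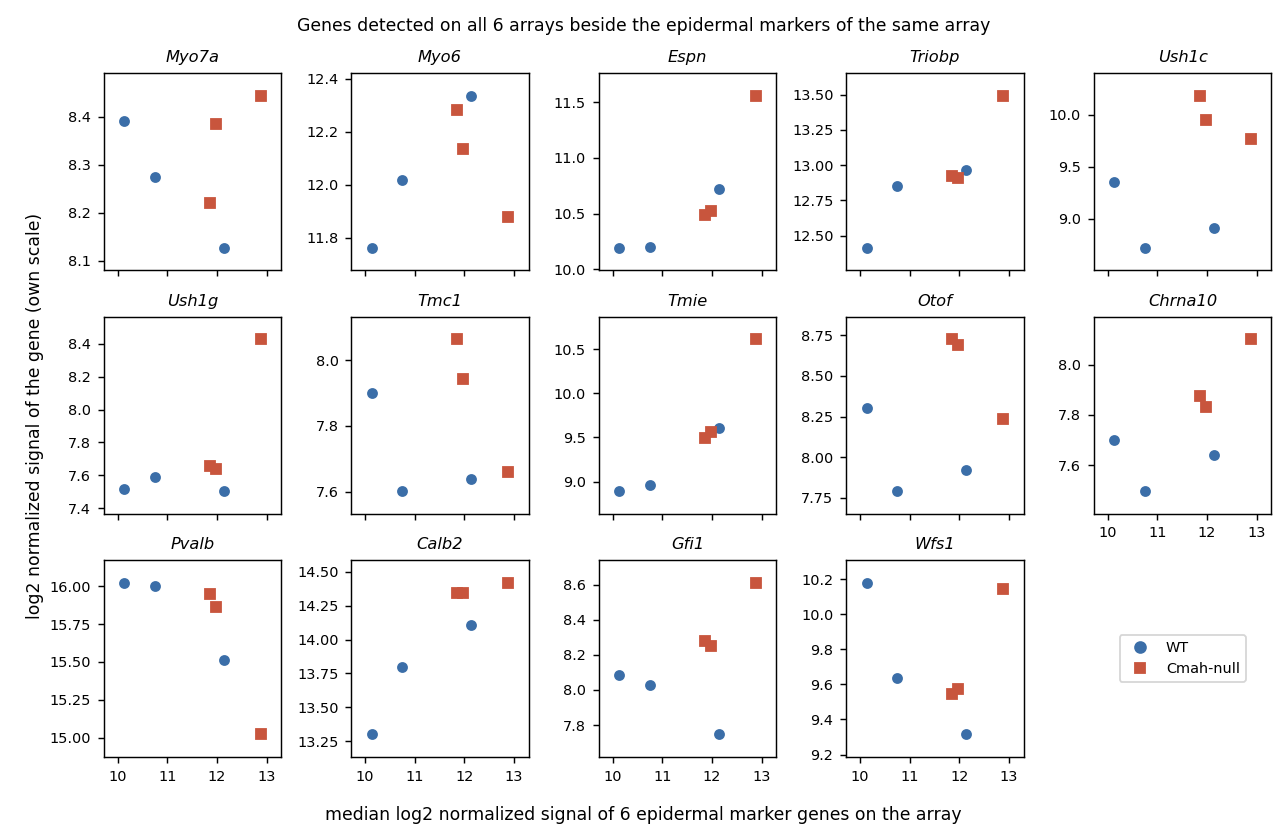
Log2 normalized signal of each of the 14 genes (vertical axis, own scale) against the median log2 signal of 6 epidermal markers on the same array (horizontal axis), for WT (circles) and Cmah-null (squares) samples. Calb2, Triobp, Tmie and Espn are lowest on WT 1, where the markers are at 10.13, and highest on Cmah-null 3, where they are at 12.88, while Ush1c and Otof are highest on Cmah-null 1.

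Other markers of the tissue were set beside the list. Cochlear non-sensory markers were present, with 9 of 13 detected on all arrays and *Otor* and *Tectb* on none, and their summed signals overlapped, at 26800 to 39500 in WT and 34800 to 38200 in *Cmah*-null samples. Of the spiral ganglion neuron markers 10 of 11 had a negative difference, with a median of -0.19 on the log2 scale and summed signals of 20200 to 38900 and 29100 to 31700. *Nefl* and *Snap25*, counted among these 10, were detected on no array, so their signs are those of background. *Prph* and *Rtn1* met the 1.5-fold rule in opposite directions. Their differences were -1.37 (SE 0.36, adjusted p = 0.453, limma) and 0.96 (SE 0.32, adjusted p = 0.54, limma). All 8 brown fat markers had a negative difference, with a median of -1.07 and summed signals of 48400 to 82800 in WT and 18500 to 29500 in *Cmah*-null samples, which did not overlap. Brain markers summed to 33300 to 37500 in WT and 38500 to 43300 in *Cmah*-null samples, which did not overlap either, although 6 of the 10 had a negative difference, with a median of -0.06. *Gad1*, the enzyme of inhibitory neurons, was 0.58 higher among them (SE 0.10, adjusted p = 0.379, limma). *Pcp2*, a bright gene of that list, read 12.62, 13.07 and 13.43 in WT and 13.37, 13.43 and 14.06 in *Cmah*-null samples, with the groups overlapping. *Cbln1* and *Gabra6* had differences of -0.15 and -0.43, also with overlapping groups. *Calb2* is also made in neurons, and the part of brain tissue in its difference was not tested. B cell markers summed to 861 to 1740 and 927 to 1020. The share of each tissue in a sample was not measured.

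**Figure D5:**
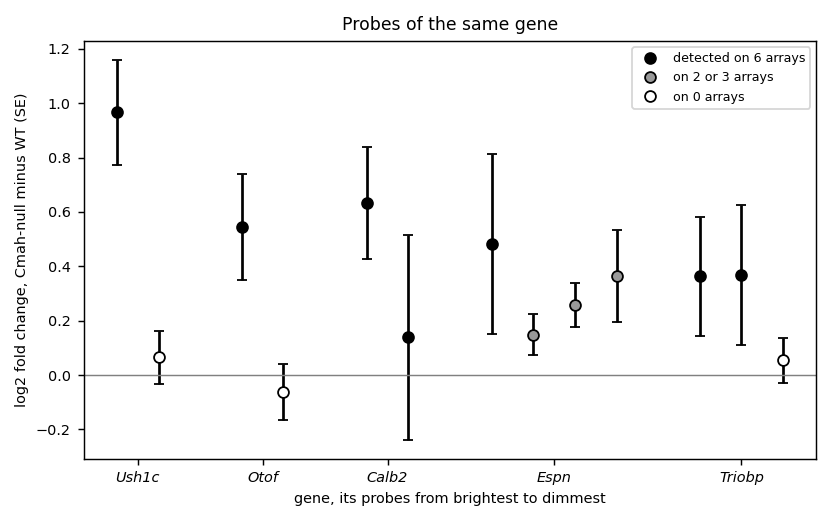
Log2 fold change (vertical axis, Cmah-null minus WT, with the SE as whiskers) of every probe of 5 genes, from the brightest to the dimmest, filled black where the probe was detected on 6 arrays, grey on 2 or 3 and white on 0. The undetected second probes of Ush1c and Otof lie at 0.07 and -0.06, and the second Calb2 probe at 0.14 beside 0.63 of the first.

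Further genes of the same cells were read from a list of 40 hair cell genes that are not among the 37. Of these 32 were found and 15 were detected on all arrays, while 9 were detected on none, such as *Bsn* (bassoon, a scaffold of the ribbon synapse) and *Fgf8*, a growth factor of inner hair cells. With these 9 included, the differences were positive in 20 and negative in 12, with a median of 0.05 on the log2 scale. By limma 0 of the 32 were called after adjustment. By the 1.5-fold rule 1 of the 32 was higher, beside 1.61% of all symbols, and 2 were lower, beside 1.46%. *Atp2b2*, the calcium pump of stereocilia, read 11.02, 10.27 and 10.06 in WT and 11.01, 11.09 and 11.53 in *Cmah*-null mice. Its groups overlapped through WT 1, with a difference of 0.76 (SE 0.28, adjusted p = 0.569, limma) that was 0.03 within the arrays of fewer beads.

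*Cib2*, a calcium-binding partner of the transduction channel that muscle also expresses, read 12.83, 12.78 and 12.35 in WT and 11.46, 11.55 and 11.92 in *Cmah*-null mice. The genotypes did not overlap, and the difference was -1.01 (SE 0.18, adjusted p = 0.397, limma). *Smpx*, a small muscle protein whose loss causes deafness, read 9.97, 10.45 and 9.27 in WT and 9.23, 9.07 and 9.13 in *Cmah*-null mice, again with no overlap and a difference of -0.76 (SE 0.29, adjusted p = 0.574, limma). The muscle markers, whose sums are given with *Pvalb*, were highest on WT 1 and WT 2 as both genes were. On WT 3 the muscle sum of 217000 lay below the 266000 of *Cmah*-null 3, whereas both genes lay above every *Cmah*-null sample. The part of muscle in these differences was not tested. *Barhl1*, a hair cell transcription factor, was the only gene of the 32 found with every *Cmah*-null sample above WT, beside 10.0% of all symbols. Every *Cmah*-null sample lay below WT for 2 of the 32, *Cib2* and *Smpx*, beside 6.67%. The *Barhl1* difference was 0.48 (SE 0.18, adjusted p = 0.563, limma). It was 0.11 and 0.92 within the bead sets and 0.32 without *Cmah*-null 3.

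A second list held 41 further deafness genes that are not among the 37, with connexins and ion transporters among them. Of the 35 found, 20 were detected on all arrays and *Msrb3*, *Marveld2*, *Cldn14* and *Pax3* on none. With these undetected genes included, the differences were positive in 22 and negative in 13, with a median of 0.14 on the log2 scale. After adjustment limma called 0 of the 35. All *Cmah*-null samples lay above WT for 5 of the 35, beside 10.0% of all symbols, and below for 4, beside 6.67%. *Bsnd* (barttin, a chloride channel subunit of the stria vascularis) read 7.83, 8.02 and 8.06 in WT and 8.30, 8.18 and 8.40 in *Cmah*-null mice, a difference of 0.33 (SE 0.10). The only gene that met the 1.5-fold rule was *Kitl*, the ligand that pigment cells need, which read 8.59, 8.63 and 8.18 in WT and 7.91, 8.07 and 7.19 in *Cmah*-null mice. Each *Cmah*-null sample was below each WT sample, with a difference of -0.75 (SE 0.26, adjusted p = 0.551, limma).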

How the data were processed

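RNA of 3 WT and 3 *Cmah*-null samples was measured on 1 array each. The authors deposited intensity values, the average bead signal of each probe without normalization, with the number of beads. A detection p-value against negative controls was deposited beside each signal. The deposited log2 values were made by the authors with quantile normalization, and they equalled a recomputation from the intensities to within 5e-07. Their columns name the second group "old", and were matched to the *Cmah*-null samples by number. Columns of the authors' own comparison (fold change, a local pooled error statistic with its adjusted p, means and SDs) and repeated signal columns were left out. Precision is limited by the number of arrays.

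The log2 values of all 25697 probes were fitted with limma 3.58.1 in R 4.3.3 with genotype as the only term (two-sided, moderated by eBayes). P-values were adjusted over the whole array by Benjamini-Hochberg. Single genes had an exact permutation test as well. The limma fit was tested on simulated data in which the arrays varied independently, whereas *Cmah*-null 1 and 2 were nearly alike. Genes detected on all arrays of a group were named with their values, and those whose groups did not overlap, at 1.5-fold or with an unadjusted p under 0.05 with their statistics. Differences of the other genes detected on all 6 arrays, and genes of the further lists, were named after their values were seen. The genes and lists were chosen with earlier results of these data known. Alternatives were neqc (offset 16), median scaling, probes detected on at least 3 arrays, blocks for replicate and bead number, *Cmah*-null 1 and 2 averaged, each array left out, another variance prior, and the dimmest probe of each gene. *Gpr98*, *Loxhd1*, *Lhfpl5* and *Myo3a* were not analysed here. Matplotlib 3.10.9 (Python 3.11.15) drew the figures.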

Additional observations from a re-analysis of the deposited data

How the results depend on the processing

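No gene of the 31 had an adjusted p under 0.05 in limma under any alternative run, and the smallest adjusted p of the 7 genes with statistics was 0.085, for *Calb2*. By the 1.5-fold rule the count of 2 genes was 1 with *Cmah*-null 1 and 2 averaged, 4 with a block for bead number, 5 with median scaling and 5 with neqc, 0 with the dimmest probe of each gene, and 1 to 3 with 1 array left out (1 without *Cmah*-null 1, *Cmah*-null 2 or WT 2, 3 without *Cmah*-null 3). Groups that did not overlap, 5 genes, were 8 with median scaling and 6 to 11 with 1 array left out (11 without WT 3, 9 without WT 1 or *Cmah*-null 3, 8 without *Cmah*-null 2), and fewer arrays make overlap less likely by construction. That count has no value for the block fits or the other variance prior. The median log2 difference of the genes detected on all arrays, 0.368, was 0.579 with neqc. With the dimmest probe it was 0.157, over fewer genes. The dimmest probes of *Ush1c*, *Otof*, *Espn* and *Triobp* were not detected on all arrays, so these genes left that median. On the whole array 697 probes met the 1.5-fold rule, with 1728 under the bead block, 2488 under median scaling, 1482 under neqc and 429 to 1037 with 1 array left out, 429 without WT 2. Of 94 values of the 7 genes, 93 kept their direction, and *Otof* read -0.062 on its dimmest probe. Log2 differences spanned 0.065 to 1.276 for *Ush1c*, 0.14 to 1.095 for *Calb2*, 0.112 to 0.861 for *Ush1g*, 0.374 to 1.067 for *Tmie*, 0.24 to 0.798 for *Chrna10*, 0.31 to 0.812 for *Gfi1* and -0.062 to 0.989 for *Otof*. The low ends of *Ush1c* and *Otof* came from their dimmest probes, which were detected on no array. With 1 array left out, the brightest probes spanned 0.829 to 1.144 for *Ush1c* and 0.44 to 0.704 for *Otof*. The causes were not tested. Same-numbered samples did not visibly deviate together (r of 0.0223, -0.17 and 0.0131), and differently numbered ones gave r of -0.097 to 0.167. With *Cmah*-null 1 and 2 nearly alike, this check could not exclude a pairing. A replicate block gave 3 genes and 811 probes by the same rule. Signals near background limit *Ush1g*, *Tmc1*, *Chrna10*, *Slc17a8* and *Eya4*.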
